A study of Mus musculus with 8 samples.

Results

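Genes for 10 RNA-binding proteins of the hnRNP, PTB and related families were followed through pre-B cell differentiation in mice with and without an intact *Upf1* gene. They were chosen by name as *Ptbp1*, *Ptbp2*, *Hnrnpl*, *Hnrnpll*, *Hnrnpa1*, *Hnrnpa2b1*, *Hnrnpd*, *Hnrnpdl*, *Hnrnph1* and *Elavl1*, several of which are known to limit their own mRNA through nonsense-mediated decay (NMD). The rule uses names and no measured value, although the genes were picked with earlier results of these data known. All 10 were found by Entrez identifier among the 27179 genes of the count table, and all 10 were among the 17700 genes with enough counts to be tested.

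RNA-seq was performed on early large pre (LPre)-B cells and small pre (sPre)-B cells sorted from bone marrow. UPF1 is the RNA helicase on which NMD depends, and the study asked how its loss alters the transcriptome in these stages. There were 8 libraries, 2 for each combination of stage and genotype. The mice labelled cKO were *Upf1* Flox/Flox, *Mb1* Cre/+ and *Igh* B1-8hi/+, and the mice labelled Ctrl were *Upf1* Flox/Flox, *Mb1* +/+ and *Igh* B1-8hi/+.

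The B1-8hi allele, a rearranged heavy chain gene knocked into *Igh*, was thus present in every mouse, controls included. It was used because it lets *Upf1*-deficient progenitors proceed to the sPre-B stage, so the data describe cells that bypass heavy chain rearrangement. Cre is expressed from the *Mb1* (*Cd79a*) locus, which confines it to the B lineage and leaves cKO cells with a single intact *Cd79a* allele, and Ctrl cells carry no Cre. Mice were 8 to 16 weeks old and of both sexes by the study's methods. The study's methods describe its samples as biological replicates that are independent, but the labels tie no library to an animal, so the *P* values below measure the spread between these libraries.

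hnRNP and PTB proteins coat nascent transcripts and decide which exons are spliced in, and many of them come in paralog pairs such as PTBP1 with PTBP2 and HNRNPL with HNRNPLL. When such a protein is abundant it can switch the splicing of its own or its paralog's pre-mRNA to a form with a premature stop codon. NMD degrades that form, and in cells without NMD it can accumulate. In lymphocytes, HNRNPLL is known for its part in splicing of *Ptprc* (CD45) and in plasma cells, while PTBP1 supports proliferation of B cells and ELAVL1 stabilizes and helps to splice mRNAs they need.

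The gene structures that carry this type of control were read from GENCODE M21 on GRCm38 (mm10). It lists transcripts annotated as NMD targets for 8 of the 10 genes, namely 4 for *Hnrnpd*, 3 for *Ptbp1*, 2 each for *Ptbp2*, *Hnrnpa1*, *Hnrnpa2b1* and *Hnrnpdl*, and 1 each for *Hnrnpl* and *Hnrnpll*. *Hnrnph1* and *Elavl1* have none, although 15 of the 18 listed *Hnrnph1* transcripts have types other than protein coding, NMD or retained intron. In *Ptbp2* and in 2 of the 3 NMD transcripts of *Ptbp1* the switch is the omission of a coding exon of 34 bases, which is shown because its loss shifts the reading frame. The exon lies at chr10:79862014-79862047 on the plus strand in *Ptbp1* and at chr3:119724612-119724645 on the minus strand in *Ptbp2*. Capitals mark the 8 bases that differ between the paralogs, and the other 26 of 34 are identical.
Ptbp1: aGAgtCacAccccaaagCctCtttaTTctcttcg
Ptbp2: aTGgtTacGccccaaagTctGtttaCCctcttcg

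In *Hnrnpl* and *Hnrnpll* the switch is the opposite, the inclusion of an extra exon that brings a stop codon. The extra exon of *Hnrnpl* has 70 bases at chr7:28817335-28817404 on the plus strand, and that of *Hnrnpll* has 83 bases at chr17:80044940-80045022 on the minus strand. Capitals mark the in-frame TGA stop codon, which begins at base 57 of the *Hnrnpl* exon and at base 45 of the *Hnrnpll* exon. In both transcripts 7 exon junctions follow it, the last of them 845 bases from the first base of the stop codon in *Hnrnpl* and 810 in *Hnrnpll*. A junction far enough downstream of a stop codon is the feature that marks a transcript for NMD.
Hnrnpl: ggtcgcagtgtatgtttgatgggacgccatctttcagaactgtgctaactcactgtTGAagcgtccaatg
Hnrnpll: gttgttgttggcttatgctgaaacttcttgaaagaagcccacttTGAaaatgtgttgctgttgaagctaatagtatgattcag

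In *Hnrnpa1*, *Hnrnpd* and *Hnrnpdl* most of the annotated NMD transcripts instead have introns after the last coding base. The counts reported here are totals per gene, in which productive and NMD forms are added together, and single transcripts were not analysed here.

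Totals per library lay between 68516857 and 160426338 counts, so that 3 counts, taken as the smallest level that could be shown, equal 0.0217 to 0.0426 CPM (counts scaled by library size). All levels below are CPM scaled with edgeR's TMM factors. *Upf1* counts per gene were not lower in the cKO libraries (Log2FC 0.59, adjusted *P* = 0.00245 in sPre-B and 0.16, adjusted *P* = 0.251 in early LPre-B cells) and do not check the label, since the deletion removes only part of the gene. *Cd79a* was lower in cKO at both stages (Log2FC −2.08, adjusted *P* = 7.05e-05 in sPre-B and −1.77, adjusted *P* = 0.000157 in early LPre-B cells). Of 4 NMD targets that the study names, *Gas5*, *Ddit3* and *Smg5* were higher in cKO at both stages, by a Log2FC of 0.57 to 2.76, and *Gadd45b* was higher in early LPre-B cells (1.58, adjusted *P* = 6.89e-05) while its Log2FC in sPre-B cells was −0.33 (adjusted *P* = 0.0529). The Ctrl replicate 2 libraries of both stages stood apart by *Xist*, with 151 and 304 counts against 290740 to 513937 in the other 6, so the 2 Ctrl libraries of a stage came from different mice, and sex and genotype are not balanced. Calls that change without either of them are given with the gene.

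Sorted cells were checked with marker lists. The summed level of the B lineage markers was 2462 to 2504 CPM in Ctrl and 1712 to 1737 in cKO early LPre-B cells, and 5503 to 6228 in Ctrl and 3940.3 to 4387 in cKO sPre-B cells. T cell markers summed to 1.54 to 2.06 CPM in all libraries. Myeloid markers summed to 105 to 126 CPM in Ctrl and 45.2 to 50.7 in cKO early LPre-B cells, and to 276 to 322 in Ctrl and 201 to 218 in cKO sPre-B cells, most of it *Itgam*. Erythroid markers (5 of 6 matched) summed to 15.1 to 31.3 CPM in Ctrl and 3.73 to 16.2 in cKO. NK cell markers summed to 3.02 to 3.31 CPM in Ctrl and 0.508 to 0.799 in cKO early LPre-B cells, and to 0.241 to 0.532 in sPre-B cells. No marker was at 0 in all libraries. Mature B or plasma cell markers summed to 136 to 139 CPM in Ctrl and 114 to 117 in cKO early LPre-B cells, and to 234 to 252 in Ctrl and 323 to 379 in cKO sPre-B cells. In sPre-B cells the means of *Ighd* (150 to 232 CPM), *Fcer2a* (5.68 to 56.8) and *Cr2* (9.45 to 22.0) were higher in cKO. Those of the plasma cell markers *Sdc1* (76.1 to 39.2) and *Jchain* (1.38 to 0.249) were lower. Early LPre-B markers summed to 5240 to 5493 CPM in Ctrl but 3373 to 3558 in cKO early LPre-B cells, and sPre-B markers to 4472 to 4937 in Ctrl but 3364 to 3597 in cKO sPre-B cells. Most of the early LPre-B sum was *Mki67* (mean 4694 CPM in Ctrl and 2988 in cKO), and the other genes of that list were also lower in cKO. In the sPre-B list the mean of *Rag1* fell from 3236 to 1555 CPM, *Cd2* from 169 to 142 and *Rag2* from 149 to 134. *Igkc* rose from 672 to 1143 and *Il2ra* from 477 to 506, so the lower sPre-B sum came mostly from *Rag1*. All of these lists but the T cell list moved with genotype in at least 1 stage, and their part in the results below was not tested.

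The 10 genes together made up 4361 to 4905 CPM in early LPre-B cells and 2531 to 3114 CPM in sPre-B cells. Per kb of exon, *Hnrnpa2b1* had the highest level in every group, with 445 ± 24.1 CPM per kb in Ctrl early LPre-B cells (SD, n = 2), and *Hnrnpll* had the lowest, with 1.28 ± 0.0987. In Ctrl early LPre-B cells the order after *Hnrnpa2b1* was *Hnrnpa1* (328 ± 27.5), *Hnrnpl* (211 ± 27.6), *Ptbp1* (204 ± 20.6), *Hnrnph1* (198 ± 17.6), *Hnrnpdl* (57.4 ± 0.149), *Hnrnpd* (53.7 ± 0.917), *Elavl1* (37.1 ± 2.06) and *Ptbp2* (11.7 ± 2.72). The libraries of *Hnrnpl*, *Ptbp1* and *Hnrnph1* overlapped, so their order was within the spread. In cKO sPre-B cells *Hnrnpa2b1* remained at 283 ± 0.932 and *Hnrnph1* was next at 259 ± 19.3, while *Hnrnpa1* stood at 76.1 ± 4.50 and was lower than *Ptbp1*.

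**Figure D1:**
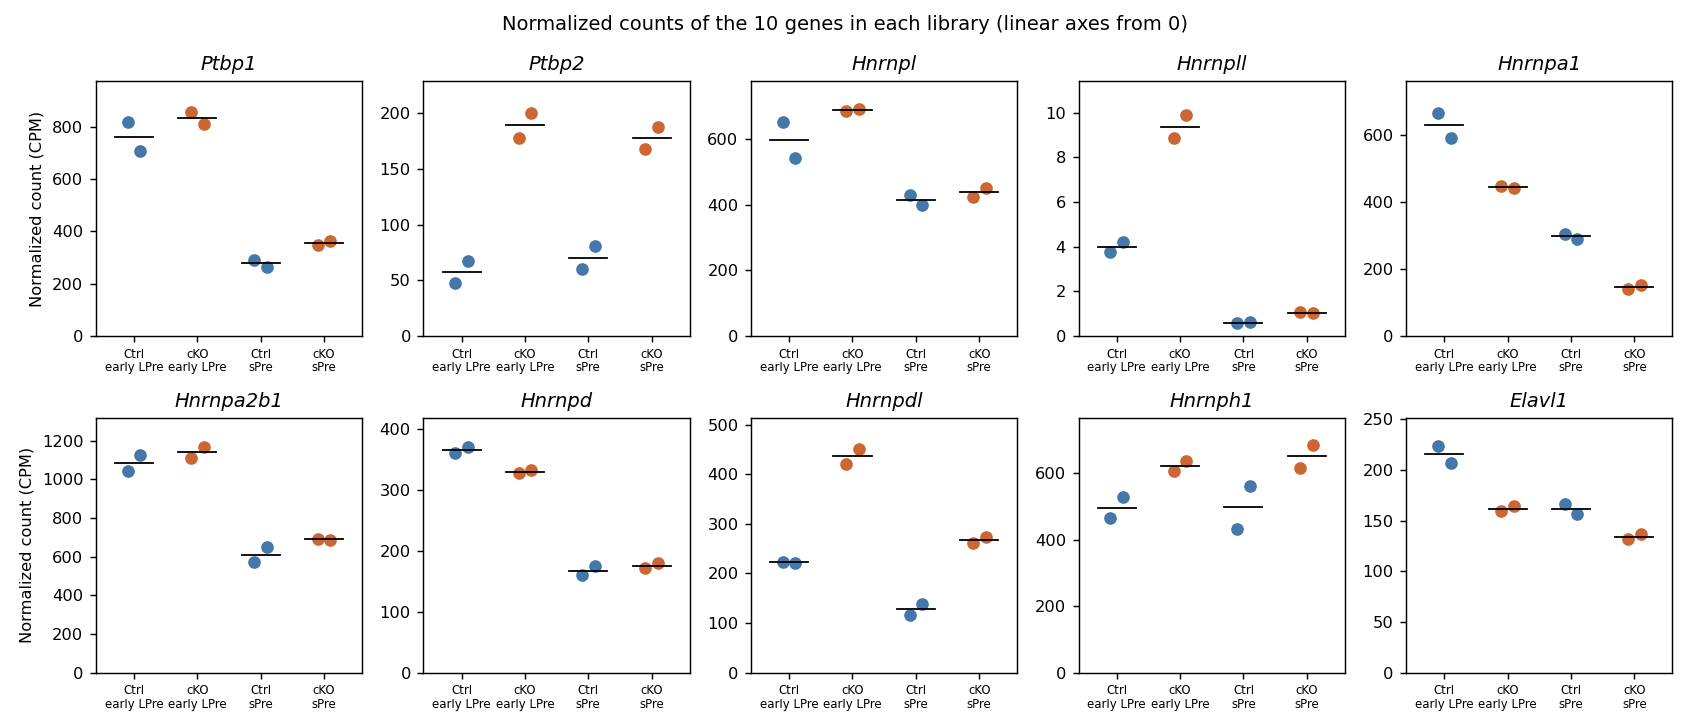
Normalized counts (CPM, linear axes from 0) of the 10 genes in each of the 8 libraries, with blue points for Ctrl, orange points for cKO and a black line for the mean of the 2 libraries of a group. *Ptbp2* lies between 48.0 and 80.4 CPM in the 4 Ctrl libraries and between 168 and 201 in the 4 cKO libraries, and *Hnrnpa1* is lower in cKO than in Ctrl libraries at both stages.

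The first comparison asked what the absence of UPF1 changed within a stage. In early LPre-B cells, 3 of the 10 genes (*Ptbp2*, *Hnrnpll* and *Hnrnpdl*) were higher in cKO and 2 (*Hnrnpa1* and *Elavl1*) were lower, by edgeR's quasi-likelihood test at an adjusted *P* under 0.05. In sPre-B cells the count was again 3 higher and 2 lower, and these were the genes named for early LPre-B cells. Of all genes tested, 14.5% were higher and 16.9% lower in early LPre-B cells, and 19.8% were higher and 14.9% lower in sPre-B cells. The 2 lower genes are about what these shares give for 10 genes, and the 3 higher genes are 1 to 2 more. The median Log2FC of the 10 was 0.17 in early LPre-B cells against −0.06 over all genes tested, and 0.27 against 0.01 in sPre-B cells. The comparisons of the stages use different libraries but the same fit. In bulk RNA, fewer cells of a kind and less RNA per cell cannot be told apart.

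**Figure D2:**
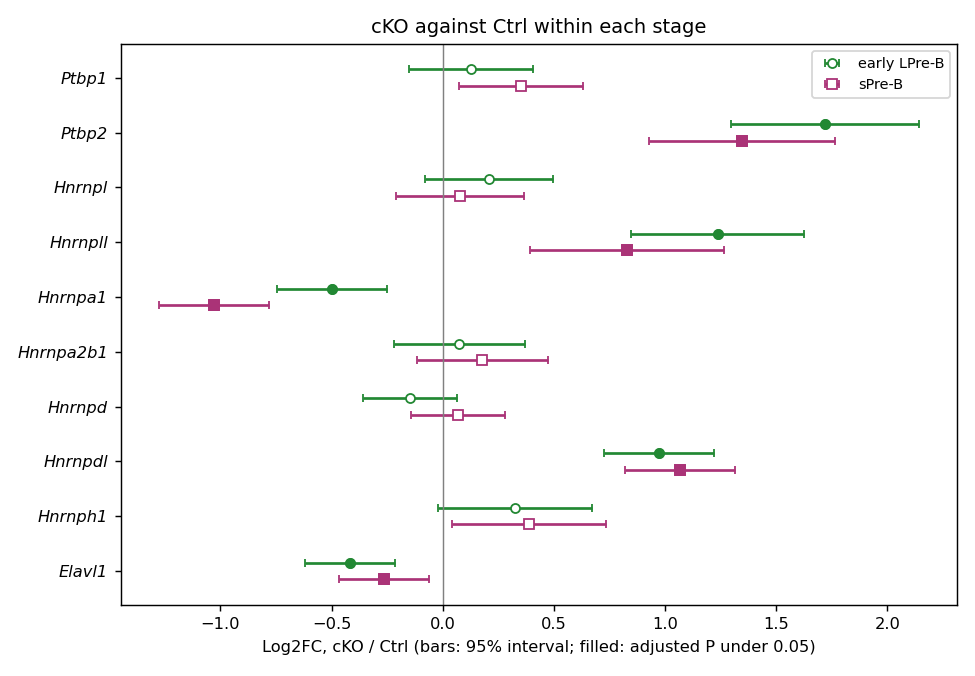
Log2FC of cKO against Ctrl for the 10 genes in early LPre-B cells (green circles) and sPre-B cells (purple squares), with 95% intervals from edgeR's quasi-likelihood fit of 2 libraries per group and filled symbols where the adjusted *P* was under 0.05. *Ptbp2* is farthest to the right at both stages (1.72 and 1.35), and *Hnrnpa1* is farthest to the left (−0.50 and −1.03).

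*Ptbp2*, the neuronal paralog of PTBP1 whose mRNA is normally kept low outside the nervous system, had the largest rise of the 10. Its level was 48.0 and 66.9 CPM in the Ctrl early LPre-B libraries and 178 and 201 CPM in the cKO libraries. In sPre-B cells it was 59.8 and 80.4 CPM in Ctrl and 168 and 188 CPM in cKO. At both stages each cKO library was above each Ctrl library, and the Ctrl levels of the stages overlapped. The rise was 3.30-fold in early LPre-B cells (Log2FC 1.72, SE 0.19, adjusted *P* = 0.000338) and 2.54-fold in sPre-B cells (1.35, SE 0.18, adjusted *P* = 0.000896). The largest adjusted *P* over all alternatives was 0.00302 and 0.00655, respectively. *Ptbp2* overlaps no other annotated gene.

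*Ptbp1*, the ubiquitous repressor of exon inclusion, was not called at either stage. It was at 816 and 707 CPM in Ctrl and 856 and 808 CPM in cKO early LPre-B cells, where the libraries overlapped. The sPre-B levels were 289.6 and 265 CPM in Ctrl and 347 and 362 CPM in cKO, without overlap. The Log2FC did not pass the test (early LPre-B 0.13, 95% interval −0.15 to 0.41, adjusted *P* = 0.464, and sPre-B 0.35, 0.07 to 0.63, adjusted *P* = 0.0535). Over the alternatives the early LPre-B value lay between 0.08 and 0.30 and did not pass. The sPre-B value is close to the threshold and passed it with DESeq2 (adjusted *P* = 0.0274), with library totals alone (adjusted *P* = 0.0224) and with the replicate block (adjusted *P* = 0.0326). *Ptbp1* overlaps *Plppr3* (mean 9581 counts) and *E130317F20Rik* (mean 4759 counts), and reads were counted without strand, so the division of counts among the 3 is uncertain. *Ptbp1* itself had 18683 to 112824 counts.

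The level of *Ptbp2* relative to *Ptbp1*, per kb of exon, was higher in cKO. The ratio was 0.0446 and 0.0718 in Ctrl and 0.158 and 0.188 in cKO early LPre-B cells. It was 0.157 and 0.230 in Ctrl and 0.368 and 0.395 in cKO sPre-B cells. The ratio in Ctrl sPre-B cells thus reached the range of cKO early LPre-B cells, in the former with less *Ptbp1* and in the latter with more *Ptbp2*. Omission of the 34-base exons printed above is annotated in 2 of the 3 NMD transcripts of *Ptbp1* and in both of *Ptbp2*.

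*Hnrnpll*, the paralog of HNRNPL that regulates CD45 splicing, was higher in cKO but low in all groups. In early LPre-B cells it had 3.77 and 4.20 CPM in Ctrl and 8.86 and 9.92 CPM in cKO. In sPre-B cells it had 0.567 and 0.610 CPM in Ctrl, which are 48 and 43 counts, and 1.06 and 1.03 CPM in cKO, which are 98 and 129 counts. Groups did not overlap at either stage. The Log2FC was 1.24 (SE 0.17, adjusted *P* = 0.00114) in early LPre-B cells and 0.83 (SE 0.19, adjusted *P* = 0.0105) in sPre-B cells, and the latter missed the threshold without Ctrl sPre-B replicate 1 (0.74, adjusted *P* = 0.0739). *Hnrnpll* overlaps *4933407O12Rik*, the pseudogene *Gpx4-ps1* and the small RNA *Gm22215*, none of which has a count in the table used here.

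*Hnrnpl* itself, a splicing regulator that binds CA-rich RNA, did not pass the test at either stage. It was at 650.1 and 540.1 CPM in Ctrl and 684 and 691 CPM in cKO early LPre-B cells. The sPre-B levels were 429 and 399 CPM in Ctrl and 424 and 449.6 CPM in cKO. The Ctrl and cKO libraries overlapped in sPre-B cells. The Log2FC was 0.21 (95% interval −0.08 to 0.50, adjusted *P* = 0.245) in early LPre-B and 0.08 (−0.21 to 0.37, adjusted *P* = 0.67) in sPre-B cells. In early LPre-B cells it passed with library totals alone (0.38, adjusted *P* = 0.032), which made 4 of the 10 genes higher, and its Log2FC was 0.38 without Ctrl replicate 1 and 0.13 without Ctrl replicate 2, neither of which passed. Per kb, *Hnrnpll* reached 0.00525 and 0.00705 of the level of *Hnrnpl* in Ctrl and 0.0117 and 0.0130 in cKO early LPre-B cells. The sPre-B ratios were 0.00120 and 0.00139 in Ctrl and 0.00227 and 0.00208 in cKO.

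*Hnrnpdl*, a paralog of *Hnrnpd* that acts in transcription and splicing, was higher in cKO at both stages. It had 223 and 222 CPM in Ctrl and 421 and 450.3 CPM in cKO early LPre-B cells. Its sPre-B levels were 117 and 138 CPM in Ctrl and 261 and 273 CPM in cKO. Ctrl and cKO were well separated at each stage. The change was 1.96-fold in early LPre-B cells (Log2FC 0.97, SE 0.11, adjusted *P* = 0.000397) and 2.10-fold in sPre-B cells (1.07, SE 0.11, adjusted *P* = 0.000217). It passed the test under every alternative, with a largest adjusted *P* of 0.00414. *Hnrnpdl* overlaps *Enoph1*, which had a mean of 1953 counts, fewer than any of the *Hnrnpdl* counts.

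*Hnrnpd* (AUF1), which binds AU-rich elements and directs mRNA decay, showed no call. It was at 361 and 369.9 CPM in Ctrl and 327 and 333 CPM in cKO early LPre-B cells, with Log2FC −0.15 (95% interval −0.36 to 0.06, adjusted *P* = 0.257). Its sPre-B levels were 161 and 174 CPM in Ctrl and 172 and 179.6 CPM in cKO, with Log2FC 0.07 (−0.14 to 0.28, adjusted *P* = 0.598). The sPre-B libraries overlapped. The level of *Hnrnpdl* relative to *Hnrnpd* per kb was 1.08 and 1.06 in Ctrl and 2.27 and 2.38 in cKO early LPre-B cells. The sPre-B ratios were 1.28 and 1.39 in Ctrl and 2.68 and 2.67 in cKO. Each cKO ratio was above each Ctrl ratio of either stage. *Hnrnpd* overlaps *4930524J08Rik* and *Gm42127*, neither of which has a count in the table used here.

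**Figure D3:**
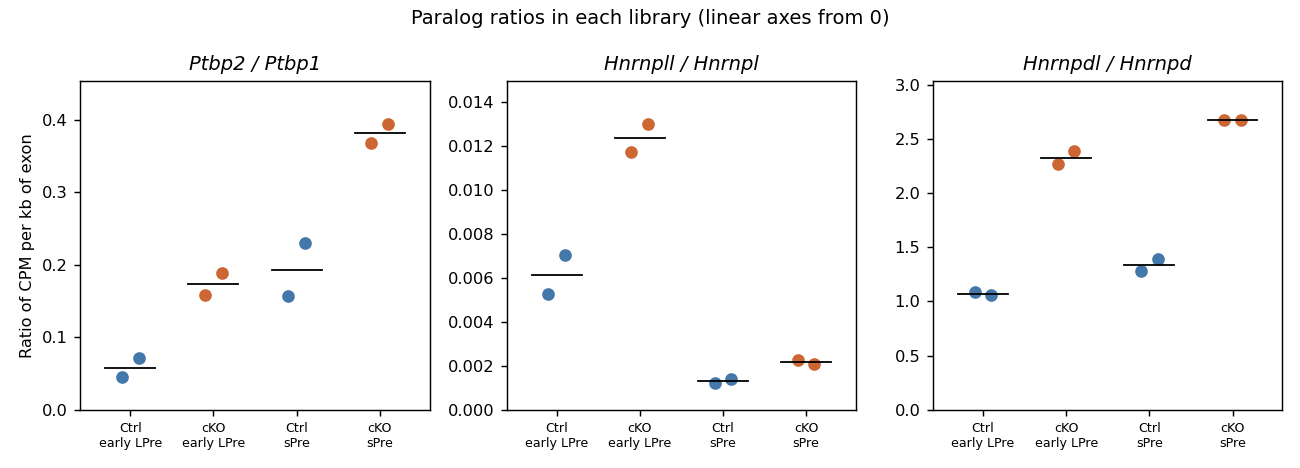
Ratio of CPM per kb of exon (linear axes from 0) for *Ptbp2* to *Ptbp1*, *Hnrnpll* to *Hnrnpl* and *Hnrnpdl* to *Hnrnpd* in each library, with blue points for Ctrl, orange points for cKO and a black line for the mean of the 2 libraries of a group. Each ratio is higher in both cKO libraries than in both Ctrl libraries of the same stage, and in sPre-B cells the ratio of *Hnrnpll* to *Hnrnpl* is at most 0.00227.

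*Hnrnpa1*, a shuttling splicing repressor that antagonizes SR proteins, was lower in cKO at both stages. It had 666 and 591 CPM in Ctrl and 449 and 441 CPM in cKO early LPre-B cells. At the sPre-B stage it had 305 and 291 CPM in Ctrl and 139.8 and 152 CPM in cKO. No library of one genotype reached the range of the other within a stage. The Log2FC was −0.50 (SE 0.11, adjusted *P* = 0.00918) in early LPre-B and −1.03 (SE 0.11, adjusted *P* = 0.000255) in sPre-B cells. The early LPre-B value missed the threshold without Ctrl replicate 1 (−0.37, adjusted *P* = 0.0548), without cKO replicate 1 (adjusted *P* = 0.0556) or without cKO replicate 2 (adjusted *P* = 0.057). *Hnrnpa1* has many near-identical retrocopies, of which *Hnrnpa1l2-ps2* had 23 to 159 counts, so its count is uncertain to the extent that reads were divided among them.

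*Hnrnpa2b1*, the paralog of *Hnrnpa1* that also sorts RNAs for transport, had the highest CPM of the 10 and was not called. It was at 1042 and 1125 CPM in Ctrl and 1110.1 and 1169.5 CPM in cKO early LPre-B cells, which overlapped. At the sPre-B stage it had 572 and 648 CPM in Ctrl and 692 and 688 CPM in cKO. The Log2FC was 0.07 (95% interval −0.22 to 0.37, adjusted *P* = 0.705) and 0.18 (−0.12 to 0.47, adjusted *P* = 0.323), respectively. *Hnrnpa1* and *Hnrnpa2b1*, both with 2 annotated NMD transcripts, thus gave different calls, although the difference between the genes was not itself tested.

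*Hnrnph1*, which binds G-rich RNA, is annotated without an NMD transcript. It was at 465 and 527 CPM in Ctrl and 605 and 637 CPM in cKO early LPre-B cells, and at 432 and 561 CPM in Ctrl and 616 and 684 CPM in cKO sPre-B cells. Both cKO libraries were above both Ctrl libraries at each stage, but the spread between Ctrl libraries was large. The Log2FC was 0.33 (95% interval −0.02 to 0.67, adjusted *P* = 0.137) and 0.39 (0.04 to 0.73, adjusted *P* = 0.0791). In sPre-B cells it passed with DESeq2 (adjusted *P* = 0.0442), with the replicate block (adjusted *P* = 0.0254) and without Ctrl replicate 2 (Log2FC 0.55, adjusted *P* = 0.0339), while without Ctrl replicate 1 the Log2FC was 0.17 (adjusted *P* = 0.44).

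*Elavl1* (HuR), which binds and stabilizes U-rich mRNAs, is also annotated without an NMD transcript and was lower in cKO. It had 224 and 207 CPM in Ctrl and 159 and 164 CPM in cKO early LPre-B cells (Log2FC −0.42, SE 0.09, adjusted *P* = 0.00837). In sPre-B cells it had 166 and 156 CPM in Ctrl and 132 and 137 CPM in cKO (−0.26, SE 0.09, adjusted *P* = 0.0471). Groups did not overlap at either stage. The early LPre-B call was lost without cKO replicate 1 (−0.39, adjusted *P* = 0.0662). The sPre-B call was lost with library totals alone (adjusted *P* = 0.0724), without the expression filter (adjusted *P* = 0.0978) and without any 1 of the 4 sPre-B or the 2 cKO early LPre-B libraries (adjusted *P* = 0.0504 to 0.23).

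The second comparison asked which of the genes change as early LPre-B cells become sPre-B cells. Of the 10, 8 were lower in sPre-B cells in Ctrl mice and 0 were higher, and in cKO mice the count was also 8 lower and 0 higher. No further gene was higher at an unadjusted *P* under 0.05 or with DESeq2, in either genotype. *Ptbp2* and *Hnrnph1* were those not called in either genotype. Over all genes tested, 29.1% were higher and 31.1% lower in Ctrl, and 31.6% were higher and 31.1% lower in cKO. The median Log2FC of the 10 was −0.82 in Ctrl and −0.72 in cKO, against 0.02 and 0.05 over all genes tested. The 8 lower genes of 10 are thus more than these shares give.

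**Figure D4:**
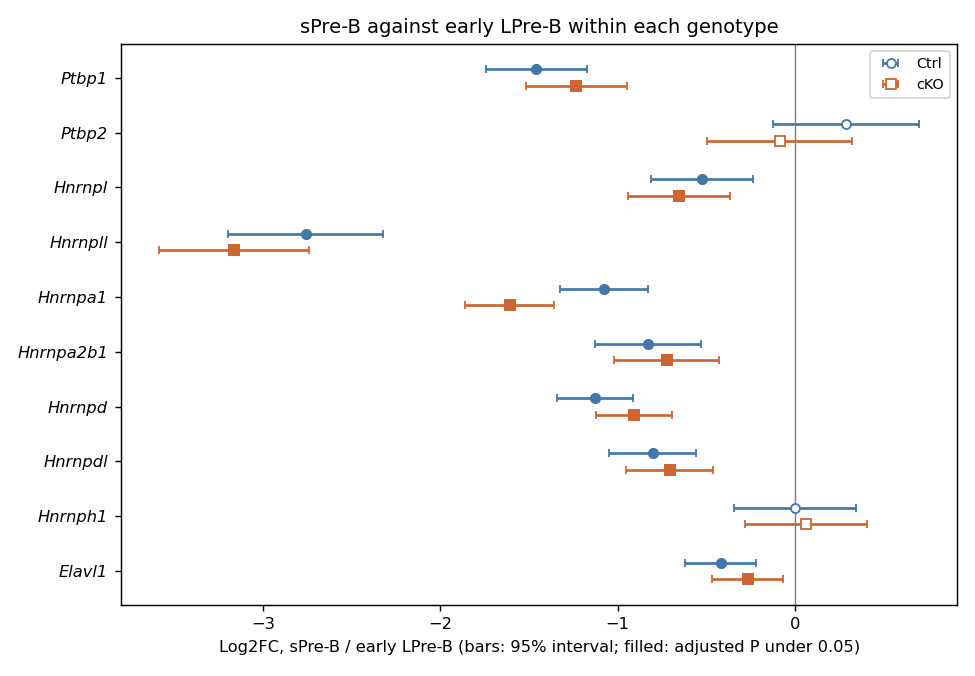
Log2FC of sPre-B against early LPre-B cells for the 10 genes in Ctrl (blue circles) and cKO mice (orange squares), with 95% intervals from edgeR's quasi-likelihood fit of 2 libraries per group and filled symbols where the adjusted *P* was under 0.05. *Hnrnpll* is farthest to the left (−2.76 and −3.16), and the intervals of *Ptbp2* and *Hnrnph1* cross 0 in both genotypes.

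*Hnrnpll* had the largest drop, from 3.99 ± 0.308 to 0.589 ± 0.0300 CPM in Ctrl (SD, n = 2) and from 9.39 ± 0.753 to 1.05 ± 0.0221 CPM in cKO. Its Log2FC was −2.76 (SE 0.19, adjusted *P* = 6.4e-06) and −3.16 (SE 0.19, adjusted *P* = 3.45e-06). *Ptbp1* fell from 762 ± 76.9 to 277 ± 17.4 CPM in Ctrl and from 832 ± 33.9 to 354 ± 10.4 CPM in cKO. Its Log2FC was −1.46 (SE 0.12, adjusted *P* = 1.87e-05) in Ctrl and −1.23 (SE 0.12, adjusted *P* = 4.64e-05) in cKO. For both genes every sPre-B library lay below every early LPre-B library of either genotype.

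*Hnrnpa1* went from 628 ± 52.7 to 298 ± 10.2 CPM in Ctrl (Log2FC −1.08, SE 0.11, adjusted *P* = 4.71e-05) and from 445 ± 5.51 to 146 ± 8.63 CPM in cKO (−1.61, SE 0.11, adjusted *P* = 6.26e-06). *Hnrnpd* went from 365 ± 6.25 to 167 ± 9.54 CPM in Ctrl (−1.13, SE 0.09, adjusted *P* = 1.6e-05) and from 329.7 ± 3.97 to 176 ± 5.43 CPM in cKO (−0.91, SE 0.09, adjusted *P* = 5.23e-05). In both genes the sPre-B libraries lay below the early LPre-B libraries of the same genotype. *Hnrnpa2b1*, *Hnrnpdl* and *Hnrnpl* dropped by less, with a Log2FC of −0.83, −0.80 and −0.53 in Ctrl and of −0.72, −0.71 and −0.65 in cKO. Their adjusted *P* was 0.000623, 0.000253 and 0.00638 in Ctrl and 0.00127, 0.000505 and 0.00192 in cKO. *Hnrnpl* in Ctrl missed the threshold without early LPre-B replicate 1 (−0.33, adjusted *P* = 0.0571) or without sPre-B replicate 2 (−0.41, adjusted *P* = 0.0569).

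*Elavl1* had the smallest of the called drops, from 216 ± 12.0 to 161 ± 6.81 CPM in Ctrl (Log2FC −0.42, SE 0.09, adjusted *P* = 0.00323) and from 162 ± 3.53 to 134 ± 3.58 CPM in cKO (−0.27, SE 0.09, adjusted *P* = 0.0267). In cKO the call was lost without any 1 of the 4 cKO libraries (adjusted *P* = 0.0718 to 0.136) and with library totals alone (adjusted *P* = 0.0727). *Ptbp2* went from 57.5 ± 13.4 to 70.1 ± 14.5 CPM in Ctrl (0.29, 95% interval −0.13 to 0.70, adjusted *P* = 0.2) and from 189 ± 16.1 to 178 ± 14.1 CPM in cKO (−0.09, −0.50 to 0.32, adjusted *P* = 0.695). *Ptbp2* in Ctrl passed the threshold without early LPre-B replicate 2 (0.62) or without sPre-B replicate 1 (0.55), the libraries that bring its Ctrl levels to overlap. Leaving out other libraries took its Log2FC as low as 0.12, and it did not pass. *Ptbp2* in Ctrl also passed with the block by genotype and number (0.29, adjusted *P* = 0.00577). *Hnrnph1* stood at 496 ± 44.2 and 497 ± 91.3 CPM in Ctrl (0.00, −0.34 to 0.35, adjusted *P* = 0.993) and at 621 ± 22.6 and 649.8 ± 48.5 CPM in cKO (0.06, −0.28 to 0.41, adjusted *P* = 0.729).

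The third comparison asked whether the effect of genotype differed between the stages, tested as the interaction of stage and genotype. None of the 10 genes passed, 0 higher and 0 lower, where 2.64% of all genes tested had a larger and 1.6% a smaller Log2FC in sPre-B cells. *Hnrnpa1* was the 1 gene with an unadjusted *P* under 0.05, with an interaction of −0.53 (SE 0.15, unadjusted *P* = 0.00747, adjusted *P* = 0.0911). It passed with DESeq2 (−0.58, adjusted *P* = 0.00817) and with library totals alone (−0.65, adjusted *P* = 0.0383), so the call for *Hnrnpa1* depends on the settings of the fit. With a block for same-numbered libraries of a genotype, *Hnrnpa1* (−0.53, adjusted *P* = 0.0237) and *Ptbp2* (−0.38, adjusted *P* = 0.0417) passed. The labels do not say whether those libraries share an animal. Both Ctrl replicate 2 libraries differ from the other libraries in *Xist*, and deviations of same-numbered libraries correlated between stages (r = 0.395 in Ctrl and 0.254 in cKO, across genes, which are not independent). Without the block, the interaction of *Ptbp2* and *Hnrnpll* was −0.37 (95% interval −0.96 to 0.21, adjusted *P* = 0.456) and −0.41 (−0.99 to 0.18, adjusted *P* = 0.416). For *Hnrnpdl* it was 0.10 (−0.25 to 0.44, adjusted *P* = 0.782). With 1 library left out, the interaction lay between −0.72 and −0.22 for *Ptbp2* and between −0.57 and −0.33 for *Hnrnpll*.

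The other genes of the families give the surroundings of these values. Of 30 further hnRNP, PTB and ELAV family genes, 28 were tested. In early LPre-B cells 3 were higher and 13 lower in cKO, and in sPre-B cells 5 were higher and 5 lower. Over all genes tested the shares were 14.5% higher and 16.9% lower in early LPre-B cells and 19.8% higher and 14.9% lower in sPre-B cells, so the 13 lower genes were more than the share over all genes gives for 28, and both sPre-B counts were near it. The 13 became 4 with library totals alone and 3 to 9 when 1 library was left out, with 3 without cKO early LPre-B replicate 1, and the 3 higher became 1 without Ctrl early LPre-B replicate 1. In sPre-B cells the 5 lower became 10 with DESeq2, 2 without cKO replicate 1 and 3 without Ctrl replicate 1, and the 5 higher became 1 or 2 without any 1 of the 4 sPre-B libraries. The median Log2FC of the 28 was −0.32 in early LPre-B cells and −0.11 in sPre-B cells. *Matr3*, a nuclear matrix protein that binds RNA, was higher in cKO at both stages (0.73, adjusted *P* = 0.00198 and 0.50, adjusted *P* = 0.00961), as was *Taf15*, of the FET family (0.49, adjusted *P* = 0.0377 and 0.49, adjusted *P* = 0.0334). *Hnrnph3* was higher in early LPre-B cells (0.88, adjusted *P* = 0.00886) and *Pcbp4* in sPre-B cells (0.90, adjusted *P* = 0.0486). *Hnrnpa0* was lower at both stages (−0.64, adjusted *P* = 0.00318 and −0.60, adjusted *P* = 0.00363), as was *Rbmx* (−0.67, adjusted *P* = 0.00319 and −0.57, adjusted *P* = 0.00561). *Ptbp3*, the third PTB paralog, was lower in early LPre-B cells (−0.57, adjusted *P* = 0.0114), from 832 ± 10.7 to 559.9 ± 48.5 CPM, and *Hnrnpr* in sPre-B cells (−0.38, adjusted *P* = 0.0126). *Ptbp1*, *Ptbp2* and *Ptbp3* thus had 3 different outcomes in early LPre-B cells, not called, higher and lower.

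Between stages, 22 of the 28 were lower in sPre-B cells in Ctrl and 20 in cKO, with 0 higher in either, also at an unadjusted *P* under 0.05 and with DESeq2. Over all genes tested, 31.1% were lower in each genotype, and 29.1% were higher in Ctrl and 31.6% in cKO. The lower genes were thus more than these shares give for 28, and the higher genes fewer. With library totals alone 1 of the 28 was higher in each genotype, as with the block by genotype and number, and 1 was higher in Ctrl with no expression filter or with the replicate block. The median Log2FC was −0.69 in Ctrl and −0.60 in cKO, near that of the 10 genes. *Hnrnpab* fell most (−1.64, adjusted *P* = 6.68e-06 in Ctrl and −1.50, adjusted *P* = 1.06e-05 in cKO), then *Raly* (−1.33, adjusted *P* = 3.18e-05 and −1.28, adjusted *P* = 4.01e-05). Next were *Pcbp3* in Ctrl (−1.20, adjusted *P* = 0.000116) and *Hnrnpa3* in cKO (−0.92, adjusted *P* = 6.17e-05). None of the 28 passed the test of the interaction, with 0 higher and 0 lower, against 2 higher and 0 lower at an unadjusted *P* under 0.05 and 0 with DESeq2. Over all genes tested, 2.64% were higher and 1.6% lower in the interaction. Of 13 SR splicing factor genes, the proteins that often oppose hnRNPs at the same exons, 12 were tested. In early LPre-B cells 5 were higher and 2 lower in cKO, and in sPre-B cells 6 were higher and 2 lower, with a median Log2FC of 0.20 and 0.30. For cKO against Ctrl the shares over all genes were 14.5% higher and 16.9% lower in early LPre-B and 19.8% and 14.9% in sPre-B cells. Against these, the 2 lower genes at each stage were near the background and the higher genes were above it. Between stages 10 of the SR genes were lower in Ctrl and 8 in cKO, and 1 was higher in each. Against the stage shares given above, the lower genes were more and the higher genes fewer. The interaction was higher for 1 and lower for 0 of the SR genes, against 3 and 0 at an unadjusted *P* under 0.05, where 2.64% and 1.6% of all genes tested were called.

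Genes with the most similar pattern over the 4 group means, by the root mean square difference of centred log2 CPM, were named for 3 of the 10. For *Ptbp1* they were *Lcp1* (0.0279), *Ssbp4* (0.0366) and *Kctd9* (0.0391). *Lcp1* had 374 and 387 CPM in Ctrl and cKO early LPre-B cells and 134 and 168 CPM in sPre-B cells. For *Hnrnpl* they were *Tmem101* (0.0168), a gene without a name in RefSeq (0.0209) and *Tcof1* (0.0261). For *Ptbp2* they were *Acvr1c* (0.0182), *Gm10277* (0.0526) and *Prelp* (0.0598), all at 0.0145 to 0.140 CPM. In part of the groups these levels lie below the smallest that could be shown, so their likeness rests on few counts.

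By RefSeq on GRCm38, *Hnrnpd* (chr5:99955935-99979130) and *Hnrnpdl* (chr5:100033577-100039936) lie near each other. The others are *Ptbp1* (chr10:79854432-79864435), *Ptbp2* (chr3:119718741-119784647), *Hnrnpl* (chr7:28808546-28822268), *Hnrnpll* (chr17:80029487-80062268), *Hnrnpa1* (chr15:103239943-103246698), *Hnrnpa2b1* (chr6:51460434-51470048), *Hnrnph1* (chr11:50375257-50386528) and *Elavl1* (chr8:4284781-4325140).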

How the data were processed

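RNA of sorted cells was depleted of ribosomal RNA and sequenced in 8 libraries. The authors' processing used Trim Galore for trimming, HISAT2 for paired-end alignment to mm10 without strand (although the kit is directional) and featureCounts. They deposited raw counts per Entrez gene. Versions are not given in the sources used here. Names came from RefSeq (25275 of 27179).

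The analysis used edgeR 4.0.16 in R 4.3.3, with TMM factors of 0.862 to 1.09. The 17700 genes that passed the expression filter by group were fitted together, with a mean for each group, a common biological coefficient of variation of 0.174 and 4 residual degrees of freedom. The quasi-likelihood F test was two-sided, adjusted by Benjamini-Hochberg over the 17700 genes, with calls at an adjusted *P* under 0.05. The script was tested on simulated data. CPM per kb used the union length of the exons of each gene's protein coding transcripts in GENCODE M21, while the counts are per Entrez gene. Intervals are 95% intervals. The limit of 3 counts covers counting error only.

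Named were all 10 genes, the 3 largest rises and falls among called genes of the other families in each comparison, the 4 NMD targets and the 3 genes most like *Ptbp1*, *Ptbp2* and *Hnrnpl*. Genes and lists were chosen with earlier results of these data known. Alternatives were DESeq2 1.42.0, median-ratio factors, library totals alone, no expression filter, no antigen receptor genes, replicate blocks and leaving out each library.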

Additional observations from a re-analysis of the deposited data

How the results depend on the processing

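Each Log2FC of the 10 genes was recomputed under the other settings. Outside the left-out libraries, 308 of these values kept direction and side of the threshold, 12 newly passed it, 3 no longer passed and 7 changed sign. With 1 library left out, 369 kept both, 3 newly passed, 17 no longer passed and 11 changed sign. A library left alone in its group was assumed to vary like the other groups. The causes of these changes were not tested. Library totals alone moved the median of all genes by 0.169 for cKO against Ctrl in early LPre-B cells, by 0.202 for the stages in Ctrl and by −0.115 for the interaction.

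In sPre-B cells, 5 of the 10 genes were higher in cKO with DESeq2, and 1 was lower with library totals alone or with no expression filter. For the interaction, 1 was lower with DESeq2 and 1 with library totals alone. Of the other family genes, 10 were lower in cKO sPre-B cells with DESeq2, 4 were lower in cKO early LPre-B cells with library totals alone, 1 was higher between stages in Ctrl with library totals alone and 1 with no expression filter, and 1 was higher between stages in cKO with library totals alone.

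The labels do not say whether same-numbered libraries share an animal or batch. Deviations of same-numbered libraries from their group means correlated across genes with r of 0.0858 and 0.155 between genotypes (sPre-B and early LPre-B cells) and of 0.395 and 0.254 between stages (Ctrl and cKO). With 2 numbers per group this does not settle the pairing, so the blocks were kept as alternatives. With a replicate block, 5 of the 10 genes were higher in cKO sPre-B cells, the additional ones being *Ptbp1* (adjusted *P* = 0.0326) and *Hnrnph1* (adjusted *P* = 0.0254), and 1, *Ptbp2*, was higher between stages in Ctrl (adjusted *P* = 0.0404). Of the other family genes 1 was higher between stages in Ctrl. With a block by genotype and replicate number, 1 of the 10 was higher between stages in Ctrl and 2, *Hnrnpa1* and *Ptbp2*, were lower in the interaction (adjusted *P* = 0.0237 and 0.0417), and 1 other family gene was higher between stages in Ctrl, 1 in cKO and 1 in the interaction.

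All sign changes were in values that passed no test. With library totals alone, *Hnrnpd* in early LPre-B cells was 0.02045, and the interaction was −0.006005 for *Hnrnpa2b1*, −0.0162 for *Hnrnpdl* and −0.04669 for *Hnrnph1*. *Hnrnph1* between stages in Ctrl was −0.006747 with no expression filter, −0.004894 with the replicate block and −0.007725 with the block by genotype and number.

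With each library left out in turn, the number of the 10 genes higher in cKO sPre-B cells was 2 to 4 and the number lower 1 to 2, the number lower in cKO early LPre-B cells was 0 to 2, and the number higher between stages in Ctrl was 0 to 1. For the other family genes these were 1 to 5 higher and 2 to 7 lower in cKO sPre-B cells, 1 to 3 higher and 3 to 9 lower in cKO early LPre-B cells, and 0 to 1 higher between stages in Ctrl. The Log2FC in sPre-B cells lay between −0.008568 and 0.1217 for *Hnrnpl* and between −0.02465 and 0.1023 for *Hnrnpd*. *Hnrnph1* lay between −0.1377 and 0.2417 between stages in Ctrl and between −0.01643 and 0.1358 in cKO. The interaction lay between −0.06464 and 0.139 for *Hnrnpa2b1*, between −0.1005 and 0.1426 for *Hnrnpdl* and between −0.1945 and 0.1847 for *Hnrnph1*.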
